A study of Mus musculus with 4 samples.

Results

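The 42 genes described here act in mitosis, when a cell that has copied its DNA separates the chromosomes on a spindle and divides. They were taken by symbol from the deposited expression table as a list of named genes; the rule uses no measured value, although the list was drawn up with earlier results of these data known. All 42 were found among 23920 genes, and all 42 reached the minimum of 1 FPKM in at least 1 library that 10762 genes passed. FPKM is the number of sequenced fragments per kilobase of transcript, scaled to the depth of the library, which allows levels of different genes to be set beside each other. The study asked how IL-3 blocks the formation of osteoclasts, the bone-resorbing cells that arise from macrophage precursors under M-CSF and RANKL, and whether the transcription factor STAT5 is needed for it. Bulk RNA of macrophages grown from bone marrow (BMMs) of male C57BL/6 mice was sequenced in 4 libraries, 1 per condition. *Stat5*fl/fl BMMs, in which floxed *Stat5a* and *Stat5b* are intact, received, per the methods, 30 ng/mL of M-CSF alone, the same with 100 ng/mL of RANKL, or both factors plus 1 ng/mL of IL-3. *Stat5* cKO BMMs were littermate cells that lack both genes through Mx1-Cre, a recombinase driven by an interferon-inducible promoter, and they received all 3 factors. Cells of all 4 libraries carried the floxed alleles, and per the methods mice of either genotype had been injected with poly I:C. The labels give 24 h of culture and an age of 8 weeks, while the methods give 6 weeks for osteoclast cultures. Because each condition has 1 library, no value has a replicate error and no difference between conditions was tested.

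Entry into mitosis is driven by the kinase CDK1 bound to cyclin A or cyclin B. Kinetochores then attach the chromosomes to spindle microtubules, the spindle checkpoint holds the cell until all are attached, and the anaphase promoting complex destroys cyclin B and securin so that the chromatids part. Transcripts of these genes accumulate in G2 and M phase and are low in resting cells, so their summed level in a culture is widely used as a sign of how many cells are dividing. M-CSF is a growth factor for macrophage precursors, and osteoclast precursors leave the cell cycle before they fuse. In bulk RNA, fewer cycling cells and less of these RNAs per cycling cell cannot be told apart.

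Promoters of many mitotic genes carry CCAAT boxes, bound by the factor NF-Y, and a cell cycle genes homology region (CHR), bound by the DREAM and B-MYB complexes. Because members of the list lay on the same side of 0 in 2 of the 3 comparisons below, 6 promoters are shown. They were chosen as those of genes at successive steps from mitotic entry to anaphase. In the longer stretch searched below, all 6 had both CCAAT and CHR letters, against 15 of the 34 members with a promoter window. They are thus not typical of the list, and members with neither motif, such as *Mad2l1* and *Pttg1*, are not shown. Each sequence shown is the 130 bases that end at the base before the RefSeq transcript start, on the strand of the gene in build GRCm38.p6. Capitals mark the letters CCAAT and the CHR letters TTTGAA or TTTAAA on either strand, so that ATTGG and TTCAAA are the same letters read on the other strand.
*Cdk1*, chr10:69352913-69353042, minus strand: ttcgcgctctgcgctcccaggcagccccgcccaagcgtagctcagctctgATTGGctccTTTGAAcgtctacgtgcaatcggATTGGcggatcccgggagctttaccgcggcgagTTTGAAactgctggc
*Ccnb1*, chr13:100786487-100786616, minus strand: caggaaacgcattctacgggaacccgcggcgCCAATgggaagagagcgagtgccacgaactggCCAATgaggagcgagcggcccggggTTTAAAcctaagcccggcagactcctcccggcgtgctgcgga
*Ccnb2*, chr9:70421555-70421684, minus strand: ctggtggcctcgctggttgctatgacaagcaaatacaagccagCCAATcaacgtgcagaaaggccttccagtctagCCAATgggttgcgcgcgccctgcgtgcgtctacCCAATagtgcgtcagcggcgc
*Plk1*, chr7:122159305-122159434, plus strand: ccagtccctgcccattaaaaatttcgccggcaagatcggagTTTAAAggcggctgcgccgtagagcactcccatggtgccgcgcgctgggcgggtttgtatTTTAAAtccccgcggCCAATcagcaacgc
*Cdc20*, chr4:118437344-118437473, minus strand: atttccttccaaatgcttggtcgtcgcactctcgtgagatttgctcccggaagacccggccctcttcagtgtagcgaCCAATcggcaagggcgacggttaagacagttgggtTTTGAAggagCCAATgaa
*Ube2c*, chr2:164769799-164769928, plus strand: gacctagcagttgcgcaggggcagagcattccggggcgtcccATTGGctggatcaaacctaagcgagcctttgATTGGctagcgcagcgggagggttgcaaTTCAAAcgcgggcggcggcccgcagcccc

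Windows were found for 34 of the 42 genes, and the 250 bases upstream of the start were searched on both strands. CCAAT occurred in 26 of the 34 (76.5%), against 41.1% of 8726 genes past the minimum that had a window and 37.5% of all 27025 genes with one. At least 2 such boxes occurred in 18 of the 34, against 16.1% and 11.5%. CHR letters occurred in 17 of them, against 20.9% and 28.1%, and both motifs in 15, against 8.07% and 10.1%. In *Ccnb2*, whose 3 boxes in the sequence above begin 87, 54 and 21 bases before the start, the boxes lie at even distances. After these positions were seen, boxes on the same strand that begin 31 to 34 bases apart were counted. They occurred in 8 of the 34 genes (*Ccnb1*, *Ccnb2*, *Cdk1*, *Ube2c*, *Aurka*, *Cdca8*, *Hmmr* and *Spc25*), against 1.95% of genes past the minimum and 0.947% of all. The limits of 31 and 34 bases are the spacings in *Ube2c* and *Cdca8*. The range thus fits these members, and their higher share cannot be read apart from that choice. CCAAT letters can share bases with CHR letters or with CCAAT on the opposite strand, TTTAAA reads the same on both strands and was counted once, and a match is a run of letters, not evidence of binding. No window was matched for *Ccna2*, *Cdc25c*, *Aurkb*, *Incenp*, *Spc24*, *Kif20a*, *Tpx2* and *Foxm1*.

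**Figure D1:**
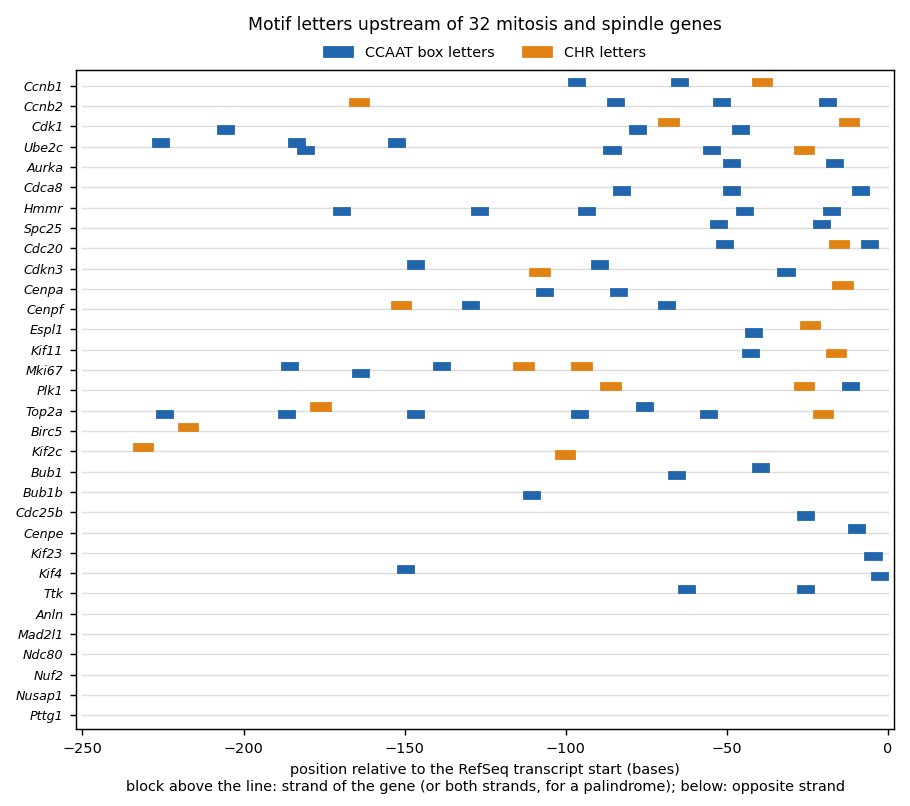
Positions of CCAAT letters (blue) and CHR letters (orange) in the 250 bases before the RefSeq start of 32 of the genes, leaving out 2 genes with several windows; blocks above a line are on the strand of the gene, below it on the opposite strand. Of the 34 genes with a window, 26 had CCAAT and 17 had CHR letters.

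The targeted genes followed the labels. In the order M-CSF, RANKL, IL-3 with RANKL and cKO, which is used for all values that follow, *Stat5a* stood at 9.89, 10.8, 12.0 and 0.17 FPKM, and *Stat5b* at 10.8, 7.80, 8.86 and 0.19 FPKM. The depth, estimated from the steps in low values, was 33.2 to 36.8 M fragments per library, so that even the members with the fewest fragments, *Cdc25c* and *Cdkn3*, rested on 498 to 723 of them. The cell type field of all 4 libraries reads osteoclast, and the title of the M-CSF library reads osteoclast precursor. The 10 osteoclast markers summed to 45.9, 1277, 141 and 518 FPKM, in the order given. *Calcr* was at 0 in all 4, and *Oscar* reached at most 0.70 FPKM. *Itgb3* was low and ran against the sum, at 1.38, 0.82, 1.13 and 0.40 FPKM. The 8 macrophage markers summed to 22597, 8372, 17642 and 12670 FPKM, most of it *Lyz2* at 19887, 7176, 15871 and 11241 FPKM. All but *Cd68* stood lowest with RANKL, such as *C1qa* at 536, 35.0, 276 and 70.8 FPKM. T cell and stromal markers summed to less than 1 FPKM in every library, with *Cd3e*, *Cd3g* and *Alpl* at 0. B cell, megakaryocyte and mast cell markers summed to at most 3.01, 1.78 and 3.36 FPKM. The 4 genes of granule progenitors (*Mpo*, *Elane*, *Prtn3*, *Ctsg*), which are expressed in promyelocytes, summed to 81.4, 60.1, 107 and 59.0 FPKM. They were thus highest in the library with IL-3, in which the mitotic genes were lowest, and their part in the results was not tested.

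All 42 mitotic genes were expressed in every condition, and all 42 stood lowest in *Stat5*fl/fl cells that also received IL-3. Over all genes past the minimum, 29.8% were lowest in that library. Summed FPKM of the 42 genes was 1751, 1912, 1389 and 2076, which is 0.334%, 0.377%, 0.255% and 0.393% of all FPKM. The differences were small. The highest library exceeded the lowest by a median of 1.505-fold, from 1.253-fold in *Cdkn3*, a phosphatase that acts on CDKs, to 2.13-fold in *Cenpf*, a large kinetochore protein. The cKO library was the highest of the 4 in 25 genes (19.2% of all genes past the minimum were highest there), the RANKL library in 10 and the M-CSF library in 7. Shares of all genes highest with RANKL or with M-CSF are not given here, so those counts do not set the 42 genes apart. With libraries scaled to a common median ratio, the library with IL-3 was lowest in 38 and the cKO library highest in 21. Scaled to a common upper quartile, these counts were 41 and 17. Shares of all genes with these scalings are not given here.

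The 42 genes took 4 of the possible orders of the libraries. From low to high, 15 ran IL-3, M-CSF, RANKL, cKO (5.72% of all genes), among them *Ccnb1*, *Bub1*, *Spc24* and *Ube2c*. Another 10 ran IL-3, RANKL, M-CSF, cKO (1.52%), among them *Cdk1*, *Plk1*, *Mki67* and *Ttk*. The order IL-3, M-CSF, cKO, RANKL also held 10 (13.9%), among them *Ccnb2*, *Cdc20* and *Cenpf*. The last 7 ran IL-3, RANKL, cKO, M-CSF (2.50%) and were *Cdc25b*, *Incenp*, *Ndc80*, *Spc25*, *Prc1*, *Ect2* and *Nusap1*. Some neighbours in these orders were nearly equal, such as RANKL and cKO for *Cdc20* at 76.4 and 76.2 FPKM, so the order of such pairs carries no weight. The orders are those of unscaled values. With libraries scaled to a common median ratio, RANKL and M-CSF changed places for 9 of the 42, among them *Top2a*, *Ccna2*, *Birc5* and *Kif11*. The count of each order thus rests partly on the scaling.

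**Figure D2:**
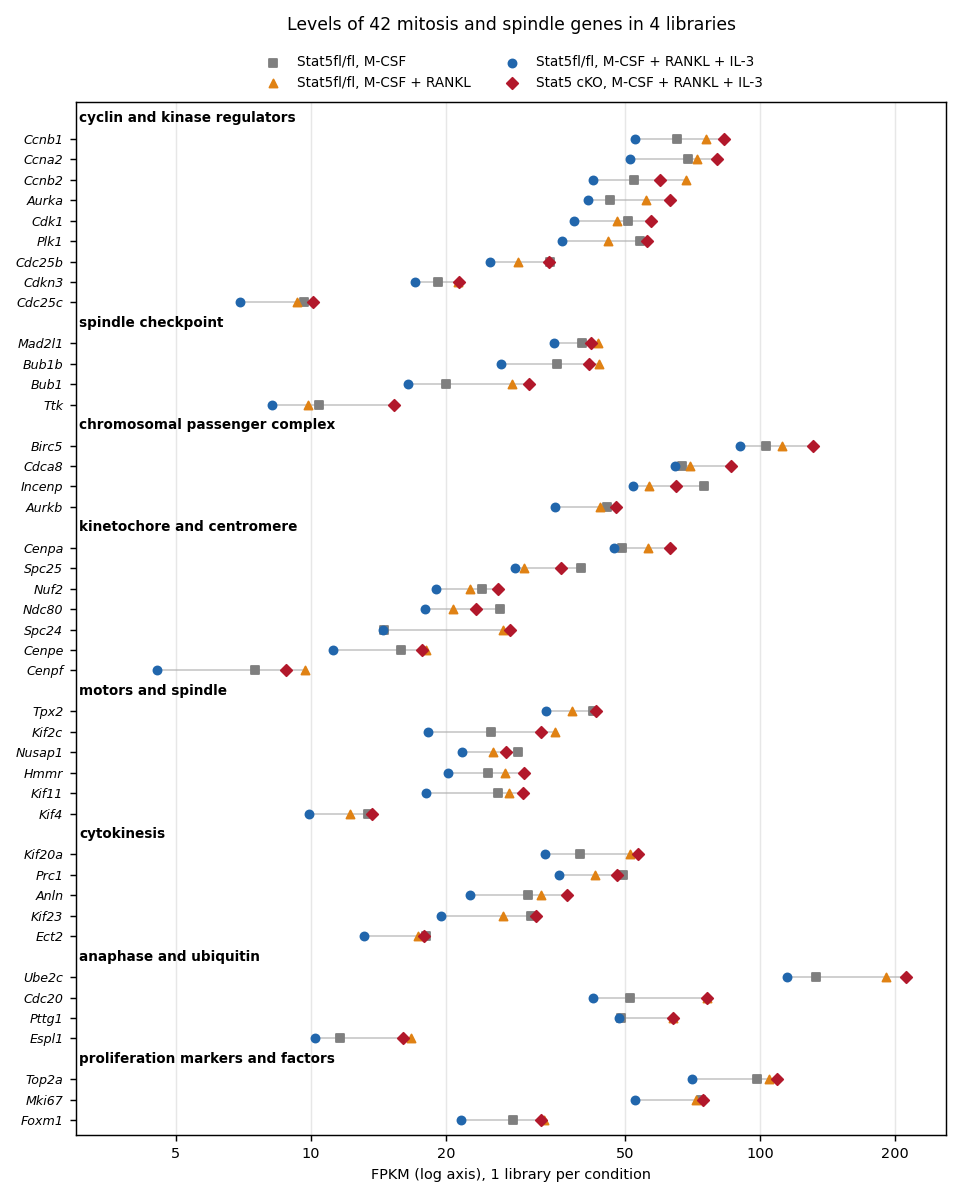
FPKM (log axis) of the 42 genes in the 4 libraries, grouped by role and ordered by mean level; each point is 1 library, without error bars, and grey lines join the lowest and highest. The blue points (*Stat5*fl/fl cells with all 3 factors) lie farthest left in all 42 rows, from 4.54 FPKM for *Cenpf* to 115 FPKM for *Ube2c*.

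Ratios between libraries were taken as differences of log2(FPKM + 1), which slightly understates the differences of low genes. In the comparison of IL-3 with RANKL against RANKL alone in *Stat5*fl/fl cells, all 42 genes were below 0, against 64% of all genes. Their median log2 ratio was -0.40, and the median of all genes was -0.15, so that part of the shift was shared by the whole table. The range was -0.95 to -0.06. On this scale none of the 42 was 2-fold apart, where 9.58% of all genes were in either direction. Without the added 1 FPKM, *Cenpf* was 2.13-fold higher with RANKL than with IL-3. At 1.5-fold, 13 were lower with IL-3 (31% of the 42, against 12.7% of all genes) and 0 were higher. These were *Cenpf*, *Kif2c*, *Spc24*, *Cdc20*, *Bub1*, *Ube2c*, *Bub1b*, *Ccnb2*, *Espl1*, *Cenpe*, *Kif20a*, *Foxm1* and *Kif11*. With libraries scaled to a common median ratio, 4 were 1.5-fold lower (7.13% of all genes), the median was -0.23 (all genes 0.001), and *Incenp*, *Cdca8* and *Spc25* stood above 0.

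The comparison of *Stat5* cKO with *Stat5*fl/fl cells sets the genotypes side by side, both with RANKL and IL-3. There was no cKO library without IL-3. A difference already present without IL-3 therefore cannot be told apart from a changed response to it. All 42 genes stood higher in the cKO library, against 64.4% of all genes. Their median log2 ratio was 0.55 (range 0.27 to 0.89), where the median of all genes was 0.13, and 89.9% of all genes lay below 0.55. The middle 50% of the members lay between 0.42 and 0.67. As before, 0 were 2-fold apart (6.39% of all genes in either direction), whereas 19 were at least 1.5-fold higher (45.2% of the 42, against 8.43% of all genes). The 6 highest ratios were those of *Spc24*, *Ube2c*, *Bub1*, *Ttk*, *Cdc20* and *Cenpf*, at 0.82 or above. With median scaling all 42 stayed above 0 (median 0.41, all genes 0.006), and 7 were 1.5-fold higher against 5.23% of all genes. This comparison and the previous one share the IL-3 library of *Stat5*fl/fl cells, so a low value of that library enters both.

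RANKL alone had no common direction among these genes, in a comparison that shares the RANKL library with that of IL-3. Against M-CSF, 25 of the 42 stood higher and 17 lower, a share above 0 of 59.5% against 61% of all genes. Their median log2 ratio was 0.09, below the 0.14 of all genes. It was -0.068 with libraries scaled to a common median ratio, so its sign rests on the scaling. None was 2-fold apart (12.3% of all genes). Only *Spc24* was 1.5-fold higher (15.6% of all genes) and 0 were 1.5-fold lower (13.9%). The library with RANKL and IL-3 also stood below the one with M-CSF alone, a comparison added after the order of the libraries was seen. All 42 were below 0 (50.6% of all genes), with a median of -0.38 where that of all genes was -0.003, and with median scaling 1 gene stood above 0.

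**Figure D3:**
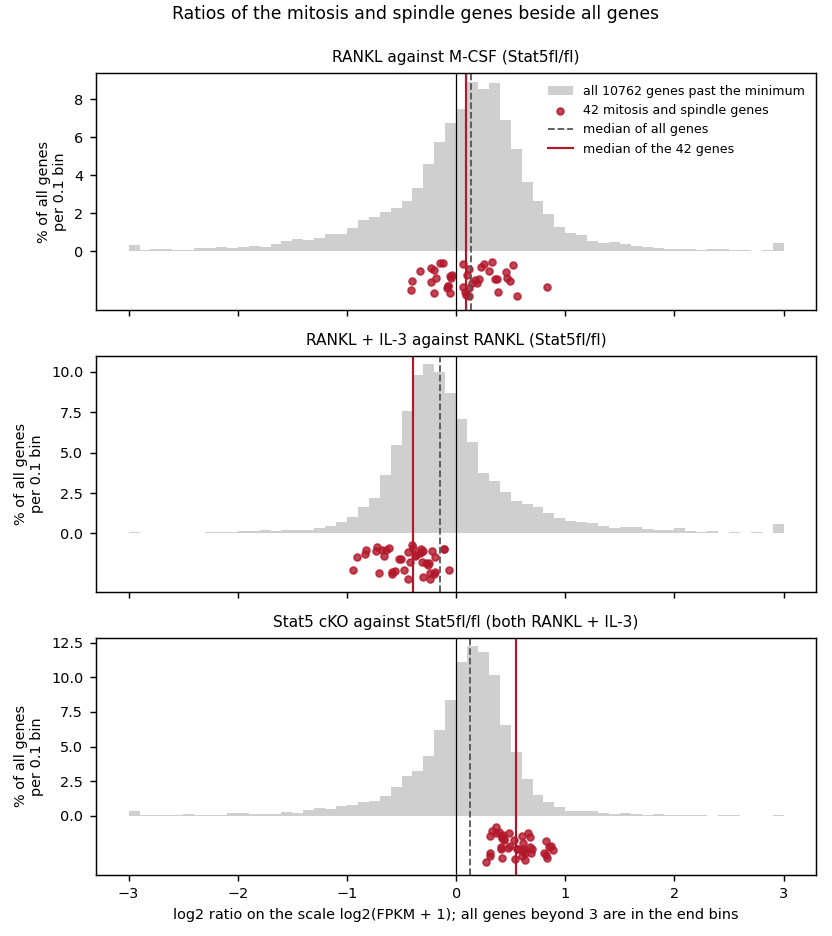
Log2 ratios on the scale log2(FPKM + 1) in 3 comparisons, with the 42 genes as red points (their vertical spread has no meaning) under the distribution of all 10762 genes in grey. The red points lie on both sides of 0 for RANKL, all below 0 for IL-3 (median -0.40) and all above 0 for cKO (median 0.55).

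Counting error was small beside most of these differences. From the estimated fragments, the approximate 95% half-width of a log2 ratio was at most 0.17 for any of the 42 genes. It was exceeded by 41 genes for IL-3 (all but *Spc25*), by 42 for cKO and by 35 for RANKL. For IL-3 against M-CSF it was exceeded by 37, so for *Cdca8*, *Cenpa*, *Spc24*, *Cdkn3* and *Pttg1* the IL-3 and M-CSF libraries lay within counting error of each other. The share of all genes beyond their own half-width is not given here, so these counts do not set the 42 genes apart. Among the 34 genes with a promoter window, the 17 with CHR letters had a median log2 ratio of -0.52 for IL-3 and 0.60 for cKO, and the 17 without them -0.32 and 0.44, given as a description. The 8 genes with the spaced CCAAT pair had -0.41 and 0.55, close to the -0.39 and 0.57 of the 26 without it. The half-widths cover counting error only and leave out the variation between cultures and mice, which 1 library per condition cannot show.

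Among the regulators of mitotic entry, *Cdk1*, the mitotic kinase itself, stood at 50.8, 48.1, 38.6 and 57.2 FPKM. Its partner *Ccnb1* (cyclin B1) stood at 65.4, 75.9, 52.6 and 83.3 FPKM, and *Ccna2* (cyclin A2) at 69.3, 72.2, 51.5 and 80.2 FPKM. For all 3 the library with IL-3 was the lowest and the cKO library the highest. *Ccnb2* (cyclin B2) was highest with RANKL instead, at 52.3, 68.4, 42.4 and 59.8 FPKM. The phosphatase *Cdc25b*, which removes inhibitory phosphate from CDK1, stood at 34.1, 28.9, 25.1 and 33.9 FPKM, with nearly equal levels in the M-CSF and cKO libraries. The related *Cdc25c* was far lower, at 9.63, 9.30, 6.97 and 10.1 FPKM. The kinases *Plk1* and *Aurka*, which build the spindle poles, stood at 54.1, 45.9, 36.2 and 56.0 FPKM and at 46.5, 55.7, 41.4 and 63.2 FPKM. They lay on opposite sides of 0 for RANKL (-0.23 and 0.26) but were nearly alike in cKO (0.62 and 0.60). *Cdkn3* stood at 19.2, 21.3, 17.1 and 21.4 FPKM, the narrowest span of the 42. The 9 regulators had a median of -0.37 for IL-3 and 0.56 for cKO.

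The spindle checkpoint genes differed widely in cKO. *Bub1*, a checkpoint kinase at the kinetochore, stood at 19.99, 28.1, 16.5 and 30.6 FPKM, with a log2 ratio of 0.85 for cKO. *Ttk* (MPS1), the kinase that starts the checkpoint signal, stood at 10.4, 9.85, 8.17 and 15.4 FPKM. Its 3 *Stat5*fl/fl values lay close together and the cKO library stood apart, at 1.88-fold the level of *Stat5*fl/fl cells with IL-3. *Mad2l1*, the inhibitor of the anaphase promoting complex, had the smallest cKO ratio of the 42 (0.27), at 40.2, 43.7, 34.7 and 42.1 FPKM. *Bub1b* (BUBR1) stood at 35.4, 43.8, 26.5 and 41.5 FPKM.

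The chromosomal passenger complex, which corrects faulty attachments and directs cytokinesis, differed little with IL-3. Its kinase *Aurkb* stood at 45.7, 44.0, 35.0 and 47.8 FPKM, and *Birc5* (survivin) at 103, 112, 90.3 and 131 FPKM. The scaffold *Incenp* was highest with M-CSF, at 75.1, 56.5, 52.1 and 64.9 FPKM. *Cdca8* (borealin) stood at 66.9, 69.9, 64.7 and 86.3 FPKM, so that the 3 *Stat5*fl/fl values lay close together below the cKO value. The median log2 ratio of the 4 was -0.21 for IL-3, the nearest to 0 of the 8 role groups, and 0.42 for cKO.

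The 4 subunits of the NDC80 complex, which binds microtubules at the kinetochore in equal numbers, did not move alike with RANKL. *Spc24* (chromosome 9, 21755434 to 21760446) stood at 14.5, 26.7, 14.5 and 27.7 FPKM. Its RANKL and cKO values were nearly equal, and so were its M-CSF and IL-3 values, with log2 ratios of 0.84, -0.84 and 0.89 in the comparisons of RANKL, IL-3 and cKO. *Spc25*, its dimer partner (chromosome 2, 69193895 to 69206213), stood at 39.9985, 29.8, 28.5 and 36.1 FPKM, with a log2 ratio of -0.41 for RANKL. *Ndc80* itself stood at 26.4, 20.7, 18.0 and 23.4 FPKM, and *Nuf2* at 24.0, 22.6, 19.0 and 26.1 FPKM. *Spc24* thus lay above 0 for RANKL and the other subunits below 0, *Nuf2* by less than its counting half-width of 0.09. No other annotated gene overlaps the exons of *Spc24*, *Spc25*, *Ndc80* or *Nuf2*.

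Of the other kinetochore genes, *Cenpf* (chromosome 1, 189640606 to 189688107) had the largest difference with IL-3. It stood at 7.503, 9.69, 4.54 and 8.82 FPKM, which is 53.1% lower with IL-3 than with RANKL, or -0.95 on the log2 scale. *Cenpe*, a kinesin that moves chromosomes to the spindle equator, stood at 15.9, 18.1, 11.2 and 17.7 FPKM. *Cenpa*, the histone H3 variant that marks centromeres, stood at 49.3, 56.4, 47.3 and 63.1 FPKM, with a smaller ratio for IL-3 of -0.25.

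Among motors and spindle proteins, *Kif2c* (MCAK), which takes microtubules apart at kinetochores, had the largest ratios. It stood at 25.2, 34.9, 18.2 and 32.6 FPKM, with -0.90 for IL-3 and 0.81 for cKO. *Kif11* (Eg5), which pushes the spindle poles apart, stood at 26.1, 27.7, 18.1 and 29.7 FPKM. *Tpx2*, which activates Aurora A on the spindle, varied less, at 42.4, 38.2, 33.3 and 43.2 FPKM. *Kif4*, *Nusap1* and *Hmmr*, which bind microtubules or chromosomes, had log2 ratios from -0.40 to -0.22 for IL-3 and from 0.31 to 0.54 for cKO.

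Of the genes of cytokinesis, *Kif20a* stood at 39.8, 51.3, 33.2 and 53.6 FPKM and was 1.5-fold lower with IL-3. *Kif23*, the motor of the centralspindlin complex, stood at 30.95, 26.8, 19.4 and 31.7 FPKM. *Anln* (anillin), the scaffold of the contractile ring, stood at 30.4, 32.5, 22.6 and 37.2 FPKM. These 3 had almost the same cKO ratio, from 0.67 to 0.69, whereas *Prc1*, which bundles the central spindle, and *Ect2*, which activates the GTPase RhoA at the division plane, had 0.42 each. *Prc1* stood at 49.5, 42.8, 35.7 and 47.9 FPKM and *Ect2* at 18.1, 17.3, 13.1 and 17.9 FPKM.

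The genes of anaphase had the role group medians farthest from 0 for RANKL (0.51) and IL-3 (-0.69). Their cKO median of 0.71 was second to the 0.73 of the spindle checkpoint genes. All 4 stood above 0 for RANKL. *Ube2c*, the ubiquitin-conjugating enzyme of the anaphase promoting complex, was the most abundant of the 42 at 133, 191, 115 and 211 FPKM. *Cdc20*, the activator of that complex, stood at 51.5, 76.4, 42.6 and 76.2 FPKM, with nearly equal levels in the RANKL and cKO libraries. *Espl1* (separase), the protease that cuts cohesin, stood at 11.6, 16.7, 10.2 and 16.0 FPKM. *Pttg1* (securin), the inhibitor of separase, stood at 49.0, 64.0, 48.5 and 63.9 FPKM, so that the M-CSF and IL-3 libraries were nearly equal and the RANKL and cKO libraries were too.

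The proliferation markers and *Foxm1* were likewise lowest with IL-3. *Mki67* (Ki-67) stood at 73.8, 71.9, 52.8 and 74.6 FPKM, so that 3 libraries were nearly equal and the one with IL-3 was 26.5% below that with RANKL. *Top2a*, the topoisomerase that untangles sister chromatids, stood at 98.6, 105, 70.5 and 109 FPKM. *Foxm1*, the transcription factor that drives many genes of the list, stood at 28.2, 33.1, 21.6 and 32.6 FPKM.

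The RANKL comparison and the cKO comparison have no library in common. Over the 42 genes, Pearson's r between the ratios was 0.64 and Spearman's rho 0.54, where all genes past the minimum gave 0.67 and 0.71. These describe genes within the same 4 libraries, which are not independent points. *Spc24*, *Cdc20*, *Ube2c*, *Bub1* and *Kif2c* stood high in both comparisons, and *Spc25*, *Incenp* and *Ndc80* low in both, whereas *Ttk* was high only in the cKO comparison.

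**Figure D4:**
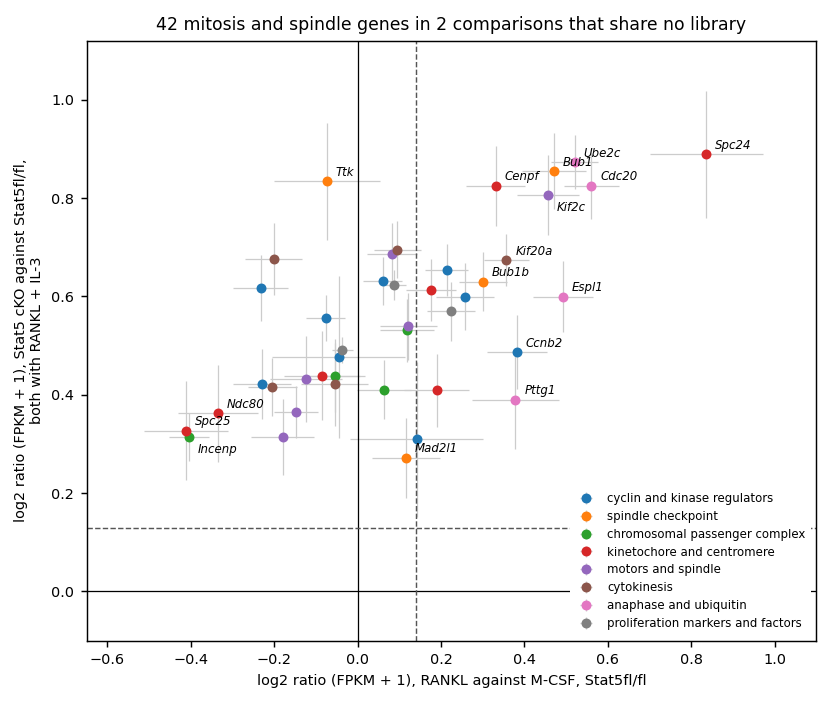
Log2 ratios of the 42 genes on the scale log2(FPKM + 1), with the RANKL comparison on the horizontal axis and the cKO comparison on the vertical axis, coloured by role; bars are approximate 95% half-widths from counting error only, and dashed lines are the medians of all genes. All points lie above the horizontal dashed line at 0.13, and *Spc24* lies farthest to the upper right at 0.84 and 0.89.

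Other cell cycle genes were read from further lists, described by counts and medians. Of 79 other mitotic genes, 71 were below 0 for IL-3 and 78 above 0 for cKO, with medians of -0.44 and 0.51, close to those of the 42. Of all genes, 64% and 64.4% lay on those sides of 0. At 1.5-fold, 17 stood lower for IL-3 (12.7% of all genes), and 26 stood higher for cKO (8.43%). Median scaling put the medians at -0.28 and 0.39, with 67 below 0 for IL-3 and 73 above 0 for cKO. The medians of all genes were then 0.001 and 0.006. *Aspm*, a spindle pole protein, stood at 5.82, 7.83, 3.47 and 6.48 FPKM, and *Casc5* (KNL1), the platform on which BUB1 gathers, at 6.62, 8.84, 4.38 and 8.16 FPKM. The gene below 0 in cKO was *Psrc1*, with a log2 ratio of -0.38, named after its value was seen.

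Genes of DNA replication and G1/S, which act before mitosis, behaved similarly for IL-3 against RANKL and for cKO, but differed for IL-3 against M-CSF. Of 47, 45 were below 0 for IL-3 (64% of all genes; median -0.34) and 47 above 0 for cKO (64.4% of all genes; median 0.48). With median scaling, 34 were below 0 for IL-3 (median -0.16, all genes 0.001) and 47 above 0 for cKO (median 0.34, all genes 0.006). Their median for RANKL was 0.29, above that of the mitotic genes and of all genes, and 0.13 with median scaling. For IL-3 with RANKL against M-CSF, 36 of the 47 were below 0 (50.6% of all genes), with a median of -0.08. The 42 mitotic genes had a median of -0.38 there. The library with IL-3 was the lowest of the 4 for 35 of the 47 (29.8% of all genes). *Mcm6*, a subunit of the replicative helicase, stood at 102, 148, 75.2 and 128 FPKM, and *Uhrf1*, which maintains DNA methylation, at 54.3, 87.1, 55.4 and 93.4 FPKM. The 16 subunits and partners of the anaphase promoting complex, most of which are present throughout the cycle, had medians nearer to 0, at -0.24 and 0.21, and at -0.069 and 0.081 with median scaling.

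The regulators of these promoters had medians of -0.23 for IL-3 and 0.19 for cKO over 23 genes, close to those of all genes, and of -0.060 and 0.065 with median scaling. *Mybl2* (B-MYB), whose complex binds the CHR, had the largest ratios of the 23, at 12.3, 37.5, 13.9 and 38.7 FPKM. It was 2-fold or more apart in all 3 comparisons, with log2 ratios of 1.53, -1.37 and 1.42. *Rb1*, which restrains E2F factors, was lower in the RANKL and cKO libraries, where *Mybl2* was higher, at 12.5, 6.84, 10.8 and 7.30 FPKM. *Tfdp1*, the partner of E2F factors, stood at 64.7, 96.5, 67.2 and 96.0 FPKM. *E2f2* was highest with M-CSF and lowest with RANKL, at 17.9, 8.56, 11.5 and 12.6 FPKM.

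A list of cell cycle exit genes and CDK inhibitors had 17 genes past the minimum. Of these, 7 stood below 0 for IL-3 (64% of all genes) and 8 above 0 for cKO (64.4%), with medians of 0.08 and -0.06. With median scaling the medians were 0.22 and -0.17. *Cdkn1a*, which encodes the CDK inhibitor p21, stood at 165, 75.8, 240 and 144 FPKM. It was thus highest in the library in which the mitotic genes were lowest, with log2 ratios of -1.11, 1.65 and -0.73. The antiproliferative gene *Btg2* followed the same order at a lower level, at 4.48, 1.44, 5.82 and 2.21 FPKM. *Btg1* did not, at 14.1, 39.8, 36.7 and 35.0 FPKM, and neither did *Cdkn2b* (p15), which was highest with M-CSF at 7.06, 1.78, 2.32 and 1.72 FPKM. *Trp53*, named after its value was seen, lay on the side of the mitotic genes for IL-3 (-0.75) and cKO (0.69). It stood at 53.8, 119, 70.5 and 114 FPKM.

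**Figure D5:**
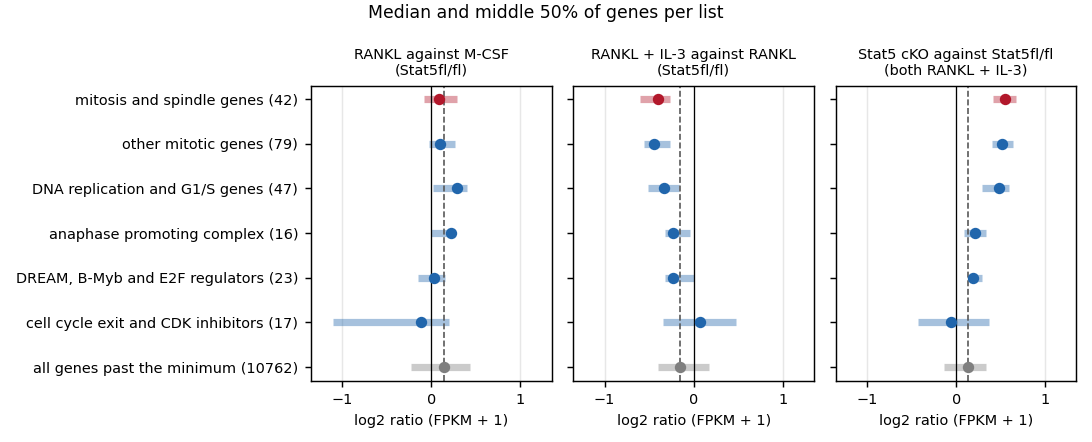
Median (points) and middle 50% of genes (bars) of the log2 ratios of 6 gene lists and of all genes in 3 comparisons, with the number of genes in brackets and the median of all genes as a dashed line. The 42 genes, the other mitotic genes and the replication genes lie below 0 for IL-3 (-0.40, -0.44 and -0.34) and above 0 for cKO (0.55, 0.51 and 0.48).

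Some of the 42 values carry a limit of the annotation. The exons of *Kif20a* overlap those of *Cdc23* on the opposite strand over 29.3% of their length, those of *Ube2c* overlap *Tnnc2* over 22.8%, and those of *Kif4* overlap *Pdzd11* over 15.1%. The sources used here do not say that strand was used, so reads of such partners may be counted together. *Ccnb1*, *Ccnb2* and *Kif4* also have an annotated pseudogene of the same name. A total of 14 genes had several transcripts, which were summed. With the most abundant transcript alone the direction was the same in every comparison except for *Ect2* with RANKL.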

How the data were processed

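Libraries came from a TruSeq RNA kit and a HiSeq2000 instrument, and the submitters' notes name TopHat2 2.0.13, Cufflinks 2.2.1 and mm10; the sources used here give no options. The deposited table holds 33170 RefSeq transcripts under a header that names no unit, and its values were read as the authors' FPKM. Transcripts were summed per gene ID (23920 genes), 47 small RNA genes past the minimum were left out by symbol, and log2(FPKM + 1) ratios were taken for 10762 genes with at least 1 FPKM in some library, with no rescaling. With 1 library per condition no test was made, and calls were folds of 2 or 1.5. The members and lists were chosen with earlier results of these data known. The rule for full values took, in each role group, the gene with the highest mean and those with the 2 largest ratios in a comparison (20 genes); most other members were added. From each further list it took up to 4 genes with the largest ratios and at least 5 FPKM, of which some are printed.

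Depth was estimated from genes with 1 listed transcript of at least 3000 nt (GENCODE M21), whose low FPKM values times length fall on steps of 1 fragment. Within 0.2 steps of whole fragments were 68.9% to 71.6% of those values; evenly spread values would give 40%, and the step was chosen from the same values. The code was tested on simulated data. Gene positions and promoters are RefSeq's on GRCm38.p6, and exon overlaps are GENCODE's. Versions were matplotlib 3.10.9, scipy 1.17.1, pandas 2.3.3, numpy 2.4.6 and Python 3.11.15.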

Additional observations from a re-analysis of the deposited data

How the results depend on the processing

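No paired analysis was possible because each condition has 1 library, and for the same reason no replicate could be left out. For IL-3 against RANKL, the median of the 42 genes was -0.23 with libraries scaled to a common median ratio (3 genes above 0), and with upper quartile scaling 1 gene was above 0. A pseudocount of 0.1 FPKM put 1 gene, *Cenpf*, 2-fold lower. For cKO, the median was 0.41 with median scaling and 0.46 with upper quartile scaling. For RANKL, it was -0.068 with median scaling (16 genes above 0) and 0.013 with upper quartile scaling. A fold of 1.5 gave 1 gene higher for RANKL, 13 lower for IL-3 and 19 higher for cKO. A log2 ratio of 0.32 gave 10 higher and 3 lower for RANKL (34.05% and 21.05% of all genes), 26 lower for IL-3 (32.6%) and 38 higher for cKO (26.7%). Median scaling also moved the split of all genes past 1.5-fold, from 15.6% higher and 13.9% lower to 10.5% and 17.1% for RANKL, from 12.1% and 12.7% to 15.5% and 7.13% for IL-3, and from 8.43% and 8.89% to 5.23% and 11.7% for cKO. The other alternatives (a minimum of 5 FPKM, no minimum, small RNA genes retained, the most abundant transcript) moved none of these counts of the 42 genes by over 1.5 times.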
